A study of Mus musculus with 6 samples.

Results

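The 26S proteasome is the protease that degrades proteins tagged with ubiquitin. Its 20S core is a barrel of alpha rings and beta rings, and its proteolytic sites lie inside the beta rings on Psmb5, Psmb6 and Psmb7. The 19S cap recognises ubiquitin chains, and its ATPases unfold the substrate and thread it into the core. In immune cells and in cells exposed to interferon, Psmb8, Psmb9 and Psmb10 are built into new cores in place of the constitutive catalytic subunits, which makes the immunoproteasome and favours peptides that bind MHC class I. p62, encoded by Sqstm1, carries ubiquitin-tagged cargo to the other degradation route of the cell, autophagy.

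The genes described here are the rows of the deposited count table whose symbol begins with Psma, Psmb, Psmc, Psmd, Psme, Psmf or Psmg and a number. There were 50 such rows among 24421, and 48 of them had enough counts to be tested, among 13762 tested genes in all. Psma8, a testis form of an alpha subunit, and Psmb11, the thymus-specific catalytic subunit, were below the count filter. Psmb11 had 0, 1 and 2 counts in controls 1 to 3 and 0 in all 3 knockouts, which allows up to 0.0472 CPM over that group (3 counts, counting error only). Psma8 had 1 count over the 3 controls and 9 over the 3 knockouts, too few to compare. Psmc3ip matches by name but encodes a meiotic recombination partner of a cap ATPase rather than a subunit. It was tested and is given separately.

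RNA of the whole prostate, from C57BL/6 mice at an age of 52 weeks, was measured by single-end sequencing of poly(A) RNA. Genotype p62f/f supplied the 3 control libraries, whose floxed p62 alleles carry no Cre and which the labels call wild type. The knockout group held 3 libraries of genotype p62FSP1KO, with the same floxed alleles and the FSP1cre recombinase. FSP1 is the product of S100a4 and marks fibroblasts and also some macrophages, so the deletion is directed at a fraction of the organ while the RNA came from all of it. Whether the 3 libraries of a group are 3 animals is not stated in the labels, and p-values here measure only the spread among these libraries, which may be technical.

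Total counts ran from 12826463 to 26910053 per library. Sqstm1 did not check the labels, since its mean level over 3 controls was 355 CPM (SD 57.4) and over 3 knockouts 463 CPM (SD 76.8). CPM is the usual library-size-normalised read count, here with TMM factors. A pair of libraries stood apart. Control 3 had 957 summed CPM of 5 adipocyte markers against 4.44 to 56.9 CPM in the other 5 libraries. Its summed level of 10 luminal prostate markers was 3625 CPM against 45640 to 87350 CPM elsewhere. Knockout 1 had higher levels of genes with short transcripts than the other knockouts, as described below. Seminal vesicle markers summed to at most 2.48 CPM in any library. The groups differed in secretory genes of the ventral lobe (Sbp, Sbpl and Spink1), which summed to 49130 to 164600 CPM in controls and 3.03 to 91.8 CPM in knockouts. The part of lobe composition in the values below was not tested.

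No proteasome gene passed the test between knockout and control, but most core, cap and immunoproteasome genes were at their highest level in a single knockout library. In edgeR's quasi-likelihood test 0 of 48 had an adjusted p under 0.05, against 5.07% of all tested genes (0.414% higher and 4.66% lower). At an unadjusted p under 0.05 there were 12 of 48 (25%), against 22.1% of all genes. Of these, 11 were higher in the knockout (22.9%, against 8.62%) and 1, Psmd5, was lower (2.08%, against 13.5%). DESeq2 called Psma4 and Psmb9 higher (4.17% of members). Over all genes DESeq2 called 2.79% higher and 7.71% lower, 10.5% in all. By limma-voom 0 members were called, against 4.85% of all genes (0.436% higher and 4.42% lower). The groups did not overlap for 21 of the 48 (43.8%), against 32.4% of all genes. In 20 of the 21 the knockout was higher (41.7% of members, against 14.1%) and in 1, Psmd5, lower (2.08%, against 18.3%). A total of 42 members (87.5%) had a positive log2 fold change, against 52.4% of all genes, and the median was 0.45 over the members and 0.03 over all genes. With library size alone as the scaling 37 members were positive and these medians were 0.31 and -0.10.

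Knockout 1 held the highest of the 6 values for 41 of the 48 members (85.4%), against 29.6% of all genes. Proteasome genes took 0.354%, 0.324% and 0.398% of the counts in the respective controls. Knockout 1 gave them 0.534%, knockout 2 0.368% and knockout 3 0.35%. Relative to the control mean, the median log2 level of the members was 0.79 in knockout 1, 0.19 in knockout 2 and 0.12 in knockout 3. Without knockout 1 the median log2 fold change of the members was 0.12, with 39 of 48 positive, against a median of 0.02 over all genes. In bulk tissue, more RNA per cell and more cells of a type with high levels cannot be told apart.

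**Figure D1:**
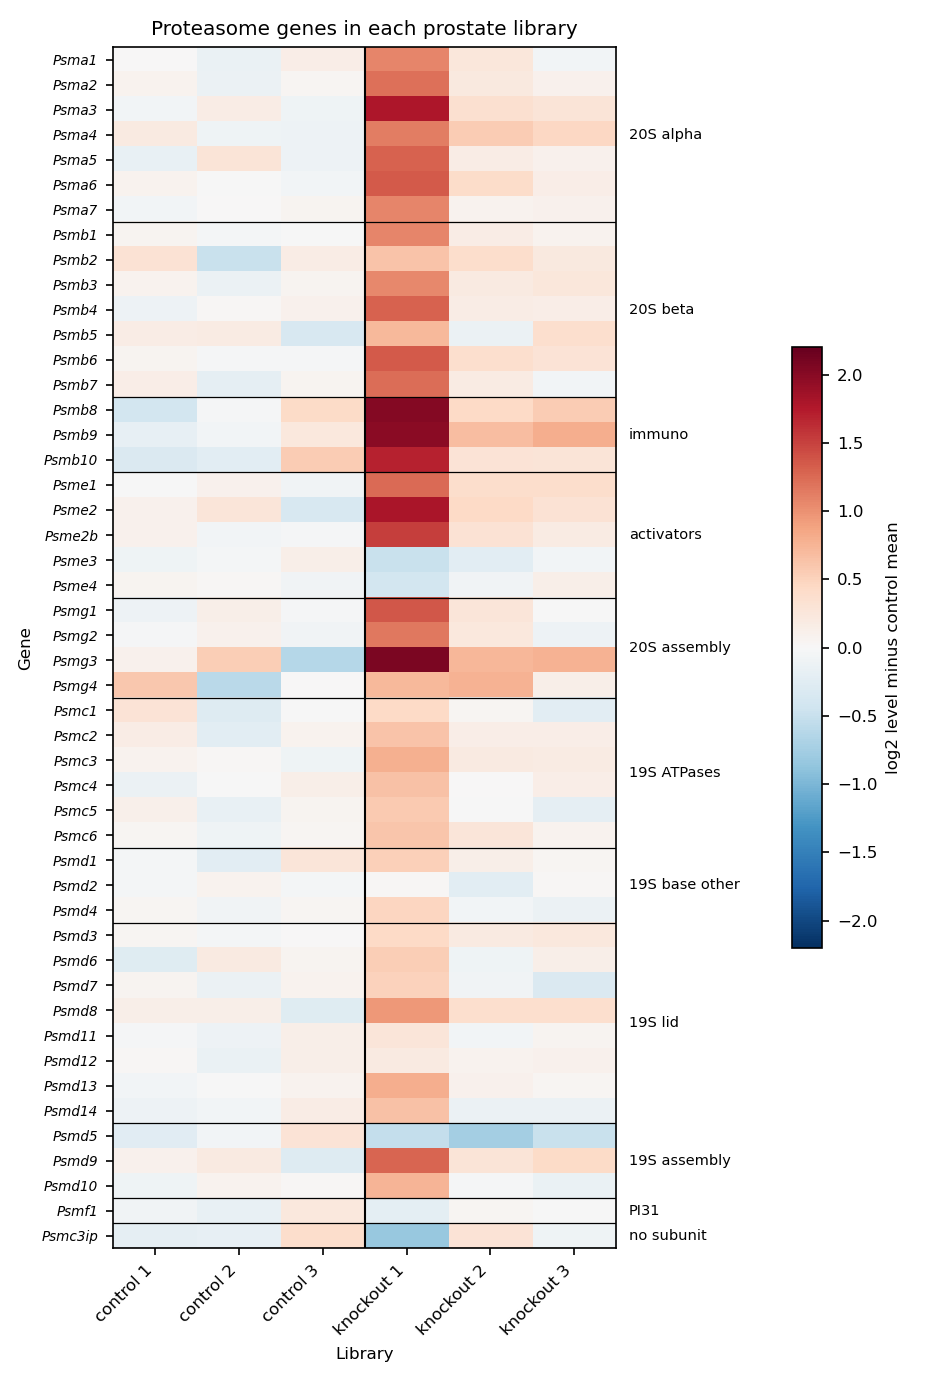
Log2 level of each of the 48 tested proteasome genes (rows, grouped by role) in each of the 6 libraries (columns), relative to the mean of the 3 controls. Knockout 1 holds the highest level for 41 genes, while knockout 2 and 3 stay near the controls, with medians of 0.19 and 0.12. Knockout 1 is below the control mean for Psmd5, Psme3, Psme4, Psmf1 and Psmc3ip.

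In GENCODE M21 on GRCm38, Psmb8 (chr17:34197721-34201454, plus strand) and Psmb9 (chr17:34181987-34187764, minus strand) lie together in the MHC region. Psmb10 is on chromosome 8. Psme1 (chr14:55578123-55581529, plus strand) and Psme2 (chr14:55587441-55591113, minus strand) are neighbours. Psmb6 lies at chr11:70525367-70527858 and Psmd5 at chr2:34849734-34874968. Stretches around the start of a few members are shown. Those of Psmb6, Psmb5 and Psme1 carry letters of elements bound by stress or interferon factors. All stretches are RefSeq sequence of build GRCm38.p6, 5′ to 3′ on the strand of the gene named, with the matched letters in capitals. Psmb6 and Psmb5 are constitutive catalytic subunits with a match to the antioxidant response element core, TGACNNNGC, the element bound by NFE2L1 and NFE2L2. Psme1 encodes the PA28 alpha activator. Just after its RefSeq start it has a match, on the other strand, to GAAA followed after any 2 bases by GAAA. These letters are a core of the interferon-stimulated response element. The GENCODE span of Psme1 begins upstream of that start, and all 30 bases of the stretch lie in annotated exons. The last stretch lies between the RefSeq starts of Psmb9 and Tap1, which are 225 bases apart on opposite strands. Its capitals mark a GC box, a motif added after the values were seen. By the GENCODE span the stretch falls inside the Psmb9 gene, and all 30 of its bases lie in annotated exons.
Psmb6 (chr11:70525296-70525356, plus strand): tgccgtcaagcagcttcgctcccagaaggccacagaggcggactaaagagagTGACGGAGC
Psmb5 (chr14:54618023-54618073, minus strand): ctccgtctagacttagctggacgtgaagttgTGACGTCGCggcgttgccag
Psme1 (chr14:55578493-55578522, plus strand): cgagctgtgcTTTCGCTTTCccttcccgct
Tap1 and Psmb9 (chr17:34187368-34187397, plus strand): cagactgaggccCCGCCCcatcatcgcgca

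RefSeq gave a promoter of 300 bases, 250 before the start and 50 after it, for 42 of the 50 members. On either strand TGACNNNGC was found in 6 of them (14.3%), against 14% of 27025 genes. The stricter form TGANTCAGC was in 1 (2.38%, Psmb5), against 1.37%. The doubled GAAA was in 5 (11.9%: Psmb3, Psmd4, Psmd9, Psme1 and Psmg4), against 3.99%. The ATF4 composite core TGATGNAA was in 1 (2.38%, Psmd13), against 4.51%. The GC box GGGCGG, a motif added after the values were seen, was in 23 (54.8%), against 38.2%. These are matches of letters in a fixed window and say nothing of binding.

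The constitutive core genes were all on the positive side. All 14 tested alpha and beta genes had positive log2 fold changes, from 0.33 to 0.98 with a median of 0.58, none past the threshold. In 9 of the 14 the groups did not overlap, with the knockout higher, against 14.1% of all genes. In all 14 the highest value was that of knockout 1. Without knockout 1 the median log2 fold change of the core genes was 0.16, positive for 14 of 14. Relative to the control mean, the core median was 0.21 in knockout 2 and 0.15 in knockout 3. Short transcripts in general were also above the controls there. Over all tested genes under 1000 bases these medians were 0.24 and 0.14, and from 1000 to under 1500 bases 0.15 and 0.09. The part of transcript length in the core values was not tested.

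Among the alpha subunits, which form the outer rings and the gate of the barrel, Psma3 had the largest log2 fold change. Values in this order, replicates 1 to 3, were 44.6, 52.0 and 43.7 CPM for its controls and 161, 59.4 and 56.8 CPM for its knockouts. The knockout 1 value stood far above the rest, and the other knockouts were just above the highest control. The difference was 0.98 ± 0.40 (log2, SE), and the adjusted p was 0.208 (edgeR). Psma4, named because DESeq2 called it, was at 61.5, 50.2 and 49.7 CPM in controls and 118, 79.1 and 73.3 CPM in knockouts. Here all 3 knockouts lay clear of the controls, with knockout 1 highest. On the log2 scale the difference was 0.74 ± 0.22 (SE; adjusted p = 0.115, edgeR). The other 5 alpha genes had log2 fold changes of 0.49 (Psma7) to 0.73 (Psma6).

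The catalytic subunits carry the proteolytic sites. Psmb6, the caspase-like subunit, was at 76.2, 72.0 and 71.5 CPM in controls and at 186, 94.2 and 90.5 CPM in knockouts. All 3 knockouts lay above all 3 controls, which differed from each other by little. This was a log2 fold change of 0.76 ± 0.29 (SE; adjusted p = 0.191, edgeR). Psmb7, the trypsin-like subunit, was at 91.3, 72.3 and 86.1 CPM in controls and at 194, 94.2 and 79.1 CPM in knockouts. Its groups overlapped, and the adjusted p was 0.36 (edgeR; log2 fold change 0.56 ± 0.34, SE). Psmb5, the chymotrypsin-like subunit, was at 16.7, 16.9 and 11.5 CPM in controls and at 24.4, 13.5 and 19.2 CPM in knockouts. Knockout 2 lay within the controls (log2 fold change 0.33 ± 0.28, SE; adjusted p = 0.498, edgeR). The structural genes Psmb1, Psmb2, Psmb3 and Psmb4 had log2 fold changes of 0.38 (Psmb2) to 0.64 (Psmb4).

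Per length of annotated transcript, core genes differed in level although each subunit has the same number of copies in a particle. In controls Psma7 stood at 130 and Psmb4 at 117 CPM per kilobase, while Psma3 stood at 16.4 and Psmb5 at 16.7 CPM per kilobase. Some core genes share sequence with other genes, whether their level is low or not. Of the 75-base stretches of their transcripts, the read length of this study, 21.3% of those of Psma3 and 40% of those of Psmb5 occur exactly in transcripts of other annotated genes. Psma5 shares 39.8% and stood at 34.4 CPM per kilobase, and Psma2 shares 1.83% and stood at 29.4 CPM per kilobase. Levels of genes with such sharing are uncertain, because the authors' handling of such reads is not known here. Psma3 and Psma2 also have annotated transcripts of 2846 and 2911 bases, against 914 bases for Psma7. Values per kilobase rest on a single annotated transcript per gene. Before this scaling Psma2 was at a mean of 85.7 CPM in controls. Of the 50 members, 14 share over 10% of their 75-base stretches with another gene. Among those described here they include Psma4 (16.7%), Psmb9 (10.8%), Psmg3 (20.3%) and Psmb7 (24.1%).

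Among core and cap subunits the largest fold changes were those of the immunoproteasome genes Psmb9 and Psmb8. Psmb9 was at 6.83, 7.41 and 9.09 CPM in controls and at 31.0, 12.5 and 13.4 CPM in knockouts. All 3 knockouts lay above the controls, knockout 1 by far the most. The log2 fold change of Psmb9 was 1.28 ± 0.38 (SE), and the adjusted p was 0.114 by edgeR and 0.0206 by DESeq2. Psmb8, the immune form of Psmb5, was at 12.2, 16.0 and 21.7 CPM in controls and at 65.8, 21.9 and 23.8 CPM in knockouts. Control 3 lay within a narrow margin of knockout 2, although the groups did not overlap. Its log2 fold change was 1.16 ± 0.45 (SE; adjusted p = 0.194, edgeR). Psmb10 was at 15.3, 16.2 and 28.0 CPM in controls and at 61.99, 23.5 and 23.2 CPM in knockouts. Control 3 lay above knockout 2 and 3, so the groups overlapped (log2 fold change 0.87 ± 0.44, SE; adjusted p = 0.289, edgeR).

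Without knockout 1 the log2 fold change of Psmb9 was 0.74 (adjusted p = 0.142, edgeR) and the median of the 3 immunoproteasome genes was 0.47 in place of 1.16. With both control 3 and knockout 1 left out, Psmb9 had a log2 fold change of 0.86 and an adjusted p of 0.0489 (edgeR). It was the only proteasome gene called in that fit.

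Leukocytes express the immunoproteasome without a stimulus, so their markers were read beside these genes. The summed level of 18 leukocyte markers was 102, 84.9 and 239 CPM in the controls, in replicate order, and 171, 171 and 198 CPM in the knockouts. Control 3 thus had the highest marker level of the 6 libraries, and knockout 1 stood level with knockout 2. Of 17 tested markers 13 had positive log2 fold changes, against 52.4% of all genes, and 0 passed the threshold. Ptprc, which encodes the pan-leukocyte antigen CD45, was at 7.32, 10.5 and 14.6 CPM in controls and 11.9, 15.9 and 19.2 CPM in knockouts (adjusted p = 0.341, edgeR). The part of leukocytes in the immunoproteasome levels was not tested.

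Within a library the ratio of an immune subunit to its constitutive partner needs no scaling factor. The log2 ratio of Psmb9 to Psmb6 counts was -3.48, -3.28 and -2.98 in the controls and -2.59, -2.92 and -2.75 in the knockouts. All 3 knockouts lay above the controls, by a mean of 0.49. The log2 ratio of Psmb10 to Psmb7 was -2.58, -2.16 and -1.62 in controls and -1.65, -2.01 and -1.77 in knockouts. The log2 ratio of Psmb8 to Psmb5 was -0.45, -0.08 and 0.91 in controls and 1.43, 0.70 and 0.31 in knockouts. The groups overlapped in both of these pairs, since control 3 stood within or above the knockouts. In all 3 pairs control 3 had the highest ratio of the controls and knockout 1 the highest of the knockouts. Without knockout 1 the mean difference for Psmb9 to Psmb6 was 0.41.

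**Figure D2:**
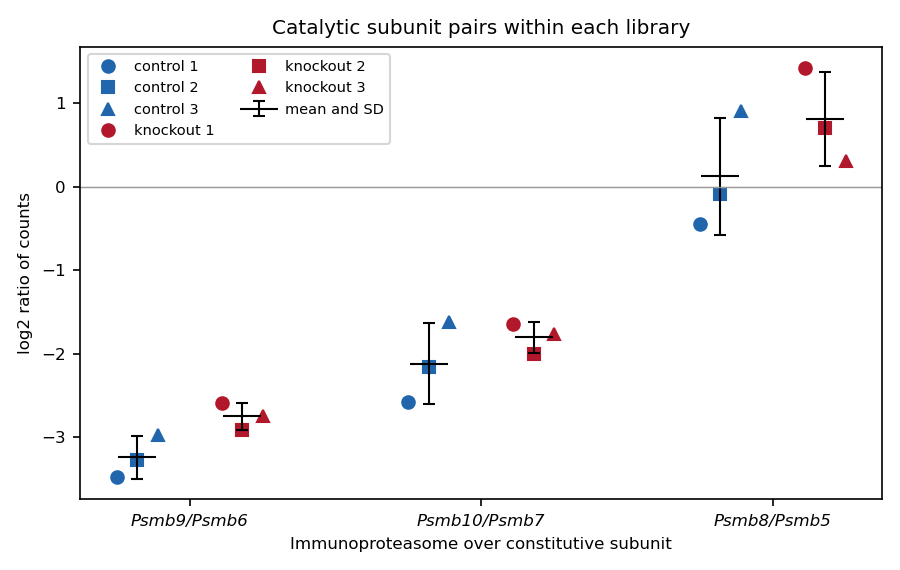
Log2 ratio of raw counts (y axis) of each immunoproteasome gene to its constitutive partner (x axis), with 1 point per library, controls in blue and knockouts in red. Bars give the mean and SD of 3 libraries. Psmb9 over Psmb6 separates the groups, at -3.48 to -2.98 in controls and -2.92 to -2.59 in knockouts, and the other pairs overlap.

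Tap1 encodes a subunit of the transporter that moves proteasome products into the endoplasmic reticulum. Its RefSeq start lies 225 bases from that of Psmb9, and Tap1 had no such difference. It was at 20.6, 26.5 and 23.8 CPM in controls and at 27.8, 23.5 and 27.4 CPM in knockouts. The groups overlapped, and knockout 1 did not stand apart from knockout 3. Its log2 fold change was 0.15 ± 0.18 (SE; adjusted p = 0.65, edgeR), against 1.28 for Psmb9. Tap1 has a longer annotated transcript than Psmb9 (1352 bases), and knockout 1 levels varied with transcript length, as described below. The part of length in this contrast was not tested. In GENCODE M21 the Psmb9 gene reaches beyond the Tap1 start, and 15.7% of its exonic bases overlap Tap1 exons on the opposite strand. Tap2, near Psmb8, was at 44.7 to 55.7 CPM in controls and 52.4 to 75.2 CPM in knockouts (adjusted p = 0.462, edgeR).

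The 11S activators of the PA28 type open the core without ATP, and PA28 alpha and beta are induced by interferon. Psme1, PA28 alpha, was at 58.9, 63.3 and 56.2 CPM in controls and at 141, 77.6 and 77.6 CPM in knockouts. All 3 knockouts lay above the controls, and knockout 2 and 3 were equal. Psme1 thus had a log2 fold change of 0.73 ± 0.26 (SE; adjusted p = 0.165, edgeR). Psme2, PA28 beta, was at 59.9, 67.4 and 44.1 CPM in controls and at 196, 76.2 and 69.7 CPM in knockouts. The knockout 1 value again stood far above, and knockout 3 was just above control 2 (log2 fold change 0.99 ± 0.41, SE; adjusted p = 0.211, edgeR). Psme2 shares 51.7% of its 75-base stretches with Psme2b, and the reads may be divided between them in either way. Psme2b itself was at 1.53 to 4.81 CPM over the 6 libraries.

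The nuclear activators did not share this pattern. Their annotated transcripts are longer, at 2664 bases (Psme3) and 6491 bases (Psme4), against 1112 bases for Psme1 and 962 bases for Psme2. The log2 level of knockout 1 minus the mean of knockout 2 and 3 was -0.35 for Psme3 and -0.43 for Psme4. The medians of all tested genes in their length classes were 0.05 and -0.35. The part of transcript length in this contrast was not tested. Psme3, PA28 gamma, was at 90.1, 93.8 and 106 CPM in controls and at 68.2, 82.0 and 92.7 CPM in knockouts. Knockout 1 was the lowest of the 6 libraries here (log2 fold change -0.25 ± 0.18, SE; adjusted p = 0.422, edgeR). Psme4, the large activator PA200, was at 166, 162 and 152 CPM in controls and at 122, 152 and 176 CPM in knockouts. Knockout 1 was again the lowest, and knockout 3 was the highest (adjusted p = 0.787, edgeR). Psmf1, which encodes the core inhibitor PI31, was at 29.7, 28.0 and 36.8 CPM in controls and at 26.9, 32.2 and 31.0 CPM in knockouts, with overlap (adjusted p = 0.85, edgeR).

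Cap genes lay closer to the controls than core genes. Of 17 tested base and lid genes 16 had positive log2 fold changes, against 52.4% of all genes. Their values ran from -0.06 to 0.58 with a median of 0.20, and none passed the threshold. In 4 of the 17 the groups did not overlap, with the knockout higher, against 14.1% of all genes: Psmc3, Psmc6, Psmd3 and Psmd8. Knockout 1 held the highest value for 16 of the 17, against 29.6% of all genes. The 6 base ATPases, which unfold substrates, had log2 fold changes of 0.09 (Psmc1) to 0.41 (Psmc3). The 8 lid genes had values of 0.07 (Psmd7) to 0.58 (Psmd8), and among them Psmd14, the deubiquitinase of the lid, had 0.17. Psmd2, the large scaffold of the base, was at 179, 195 and 179 CPM in controls and at 187.2, 158 and 187.1 CPM in knockouts and had the negative value of the 17. With library size alone as the scaling, 11 of the 17 stayed positive and the median was 0.06. Without knockout 1 the median was 0.07, also with 11 of 17 positive.

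Chaperones that assemble the particle differed among themselves. Psmg3, a chaperone of the alpha ring, was at 9.86, 13.5 and 5.95 CPM in controls and at 39.1, 15.4 and 15.8 CPM in knockouts. The groups did not overlap, and control 2 was close to knockout 2 (log2 fold change 1.26 ± 0.45, SE; adjusted p = 0.169, edgeR). The other 3 core chaperone genes had log2 fold changes of 0.48 (Psmg4) to 0.66 (Psmg1). Among base chaperones, Psmd9 had a log2 fold change of 0.72 and Psmd10 of 0.24.

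Psmd5, which encodes the base chaperone S5b, was the proteasome gene with the largest negative log2 fold change. It was at 75.5, 87.0 and 111 CPM in controls and at 62.6, 53.7 and 63.9 CPM in knockouts. All 3 knockouts lay below all 3 controls, and knockout 1 was not apart from the other knockouts. It was the 1 member of 48 (2.08%) with such a separation downwards, against 18.3% of all genes. The log2 fold change of Psmd5 was -0.60 ± 0.19 (SE; adjusted p = 0.132, edgeR). Without knockout 1 it was -0.63, and with any other library left out it stayed between -0.73 and -0.44. Psmc3ip, the gene matched by name, was at 0.878, 0.894 and 1.37 CPM in controls and at 0.526, 1.29 and 0.958 CPM in knockouts, with overlap (adjusted p = 0.874, edgeR).

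**Figure D3:**
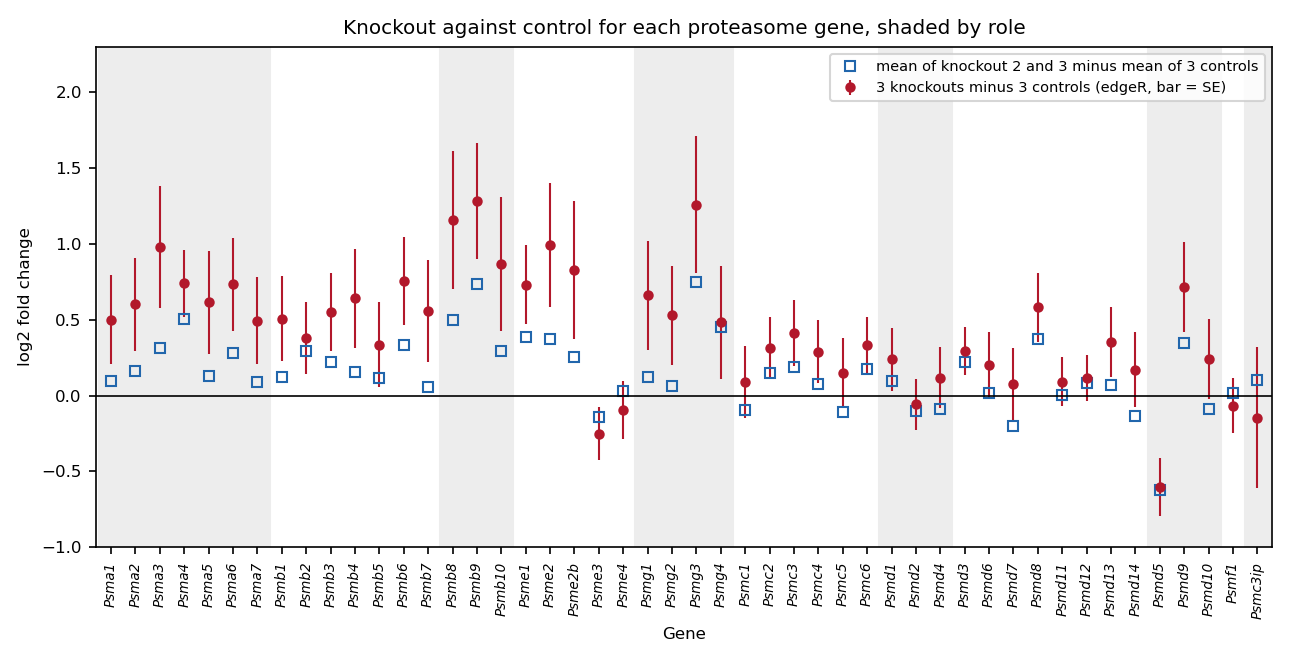
Log2 fold change of knockout against control (y axis) for each tested proteasome gene (x axis), shaded in turns by role. Red points are edgeR estimates over 3 against 3 libraries with SE bars, and open squares are the difference of mean log2 levels with knockout 1 left out. Squares lie below the red points for core and immunoproteasome genes, Psme1 and Psme2, while Psmd5 keeps its value.

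Transcript length moved with the excess in knockout 1. Over all tested genes, the median log2 level of knockout 1 relative to the mean of knockout 2 and 3 was 0.69 for transcripts under 1000 bases. It was 0.45 from 1000 to under 1500 bases, 0.25 from 1500 to under 2000 and 0.05 from 2000 to under 3000 bases. It was -0.18 from 3000 to under 5000 bases and -0.35 from 5000 bases. Core genes have short transcripts, with a median of 1163 bases, and the 17 cap genes a median of 1636 bases, against 2989 bases over all tested genes. Across the 48 members Spearman's rho between length and this excess was -0.47, and -0.42 across 13279 genes. These are correlations across genes that share the same libraries.

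Beside genes of the same length class the members' excess in knockout 1 was smaller but present. Relative to the class median of all genes, the excess had a median of 0.57 in the 14 core genes, 0.95 in the 3 immunoproteasome genes and 0.23 in the 17 cap genes. From 1000 to under 2000 bases there were 7 core and 12 cap genes, which can be set side by side. The median log2 fold change of knockout against control was 0.62 for these core genes, with a range of 0.50 to 0.74. It was 0.19 for the cap genes, with a range of 0.07 to 0.58, and 0.20 for all 2789 tested genes of that length. In knockout 1 the median log2 level relative to the control mean was 1.23 for the core genes, 0.60 for the cap genes and 0.41 for all genes of that length. In knockout 2 it was 0.19, 0.02 and 0.11, and in knockout 3 it was 0.10, 0.06 and 0.04. The part of RNA quality or library preparation in the knockout 1 values was not tested.

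**Figure D4:**
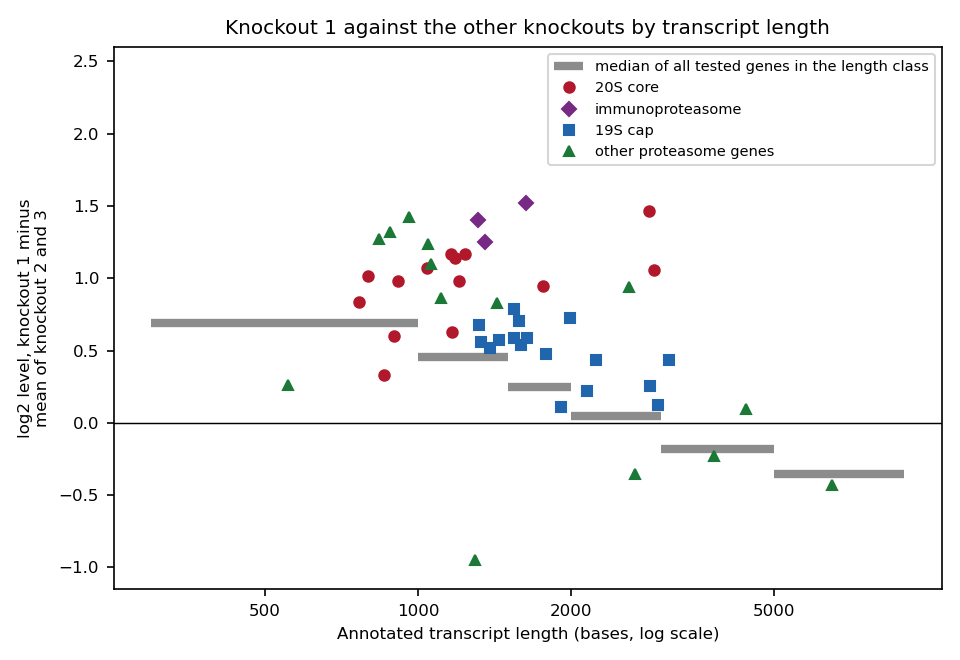
Log2 level in knockout 1 minus the mean of knockout 2 and 3 (y axis) against annotated transcript length on a log scale (x axis) for the 48 tested proteasome genes. Grey bars give the median of all tested genes in each length class, from 0.69 under 1000 bases to -0.35 from 5000 bases. Core and immunoproteasome genes lie mostly above the bars, and 8 members lie below the median of their class (Psmb2, Psmb5, Psmd12, Psme3, Psme4, Psmf1, Psmg4 and Psmc3ip).

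A fit with each library's trend on transcript length as an offset, chosen after seeing the data, gave 0 calls among the members in edgeR. The median log2 fold change was then 0.32 for the core genes, 0.96 for the immunoproteasome genes and 0.09 for the cap genes. Psmb9 had a value of 1.02 with an adjusted p of 0.103 in that fit, and Psmd5 a value of -0.47.

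Genes outside the name rule that work with the proteasome had no call in edgeR either. Of 17 tested partners none passed the threshold, 9 had positive and 8 negative log2 fold changes, and the median was 0.04. The partners with the smallest p were Ube3c, a ubiquitin ligase on the proteasome (log2 fold change -0.59), Zfand5, a proteasome activator (-0.44), and Ubqln4, a shuttle of ubiquitinated cargo (0.58). Their adjusted p were 0.127, 0.17 and 0.186 in edgeR. Shfm1, the small cap subunit known as SEM1, was at 60.3, 82.5 and 58.5 CPM in controls and at 195, 82.6 and 82.3 CPM in knockouts (adjusted p = 0.229, edgeR). Pomp, the maturation factor of the core, was at 96.5, 93.4 and 107 CPM in controls and at 212.9, 105 and 89.7 CPM in knockouts (adjusted p = 0.429, edgeR). Shfm1 and Pomp were named after their values were seen, and both were highest in knockout 1.

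NFE2L1, also called NRF1 or TCF11, is the factor that raises proteasome gene transcription when the proteasome is impaired. Nfe2l1 was at 517, 491 and 515 CPM in controls and at 385, 351 and 415 CPM in knockouts. All 3 knockouts lay below the controls (log2 fold change -0.40 ± 0.19, SE; adjusted p = 0.271, edgeR). Of its list of 10 regulators 0 passed, 7 had negative log2 fold changes and the median was -0.28, against 0.03 over all genes. The others with the smallest p were Stat3 (-0.56; adjusted p = 0.207) and Nfe2l2 (-0.40; adjusted p = 0.288, edgeR).

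Ubiquitin genes and the p97 pathway, which extracts proteins from membranes for the proteasome, had no call in edgeR among 6 and 10 tested genes. Rps27a, which encodes ubiquitin fused to a ribosomal protein, had a log2 fold change of 1.11 (adjusted p = 0.175, edgeR), and DESeq2 called it. Rps27a was at 792 CPM in knockout 1 against 373 and 269 CPM in knockout 2 and 3. Uba1, the main ubiquitin-activating enzyme, had a log2 fold change of -0.47 (adjusted p = 0.272). Syvn1, Sel1l and Derl3, of the ligase complex of the endoplasmic reticulum, had log2 fold changes of 1.49, 0.76 and 0.94 (adjusted p = 0.206 to 0.275, edgeR). Syvn1 was high in knockout 1 and 3, at 828 and 621 CPM, and at 143 CPM in knockout 2, a different library order from the core genes.

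Of 12 genes that supply or load MHC class I peptides 0 passed in edgeR and 11 had positive log2 fold changes, against 52.4% of all genes. The median was 0.34, against 0.03 over all genes. Knockout 1 held the highest value for 9 of the 12, B2m among them, against 29.6% of all genes. B2m, the light chain of class I molecules, was at 1133, 693 and 524 CPM in controls and at 2819, 1380 and 1180 CPM in knockouts. The groups did not overlap (log2 fold change 1.19 ± 0.45, SE; adjusted p = 0.183, edgeR), and DESeq2 called it. The next by p were Tapbpl and Pdia3, which help load class I molecules, with log2 fold changes of 0.43 and 0.79 (adjusted p = 0.208 and 0.281, edgeR). In the list of interferon signalling genes 0 of 10 passed in edgeR, with a median of 0.11. Irf8, Ifngr1 and Jak1 had log2 fold changes of 0.69, 0.82 and -0.44 (adjusted p = 0.139 to 0.196, edgeR). Ifng itself had 0 counts in all controls and 6, 1 and 0 in knockout 1, 2 and 3, below the count filter.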

How the data were processed

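The labels' protocols give Trizol extraction, poly(A) selection, NEBNext directional libraries and 75-base single-end reads. STAR, DESeq2 and the build mm10 are named, without versions or roles, per the submitters' processing notes. No source used here gives the counter, the annotation or the strand option. Overlapping and antisense genes therefore could not be separated with certainty. The authors deposited whole-number read counts per gene symbol, not normalized, for 6 libraries, and 0 columns were left unmapped. Replicate numbers only name libraries.

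Counts were tested with edgeR 4.0.16 in R 4.3.3 (expression filter with a minimum count of 10, TMM factors, quasi-likelihood F test, no covariate). P-values were adjusted by Benjamini and Hochberg over 13762 genes, with a threshold of 0.05. Each SE is the absolute log2 fold change divided by the square root of F. Log2 levels used a prior count of 2. Alternatives were RLE, upper-quartile and library-size scaling, other filters, DESeq2 1.42.0, limma-voom (limma 3.58.1), leaving out libraries and, added later, a length offset (loess span 0.5). Lengths and exact 75-base matches came from GENCODE M21 on GRCm38, which matched 96.5% of tested genes. No pair of libraries was a duplicate (mean chi-square per gene of at least 51).

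The members and gene lists were chosen with earlier results of these data known. Members past the threshold, the catalytic subunits, Psme1, Psme2, Psmf1 and the 5 members with the largest positive and the 5 with the largest negative log2 fold change were to be given in full. Of each pathway list up to 3 genes with the smallest p were named, with Nfe2l1, Tap1, Tap2 and Ptprc. On simulated counts (3 against 3, 13533 genes) 19 of 100 genes altered 2-fold were found and 86 of 100 altered 4-fold, and 3 unaltered genes were called. Psma4, Shfm1 and Pomp, and values of other members in ranges, fall outside the rule. Some items are not reported here.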

Additional observations from a re-analysis of the deposited data

How the results depend on the processing

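No proteasome gene was called with any library left out in turn (0 to 0), nor with the other scalings and filters, limma-voom or the length offset. DESeq2 called 2 (Psma4 and Psmb9, the latter at log2 1.29, adjusted p = 0.0206), and leaving out control 3 and knockout 1 together called 1 (Psmb9, adjusted p = 0.0489). Pathway genes gave 2 calls in DESeq2 (B2m and Rps27a), 1 without control 3 and knockout 1 (Ifngr1), and 0 to 0 with a library left out. Over all genes 698 were called, 255 to 551 with a library left out, 1582 in DESeq2 and 1229 without control 3 and knockout 1. Leaving out 1 library gave member medians of 0.12 to 0.59, core medians of 0.16 to 0.80, cap medians of 0.07 to 0.31 and immunoproteasome medians of 0.47 to 1.43, the lowest each time without knockout 1. Without control 3 and knockout 1 the member median was 0.16. With a library left out, the pair differences were 0.38 to 0.63 (Psmb9 over Psmb6), 0.09 to 0.57 (Psmb10 over Psmb7) and 0.38 to 1.08 (Psmb8 over Psmb5). Of 224 values of 15 named members, 11 changed sign. These were of Psmf1 (-0.15 to 0.061 with a library left out, 0.13 without control 3 and knockout 1, 0.03 with the length offset), Psmc3ip (-0.46 to 0.11, and 0.33 without both libraries), Psme4 (-0.23 to 0.036, and 0.039 with the length offset) and Psmb5 (-0.042 without both libraries, -0.012 with the length offset). Before the start only, TGANTCAGC was in 0 promoters and the doubled GAAA in 3. No paired analysis was possible because the labels number no replicates and the numbers used here are names only. The cause of these shifts was not tested. On the simulated counts 19 of 100 genes altered 2-fold were called. The altered genes there were drawn at random from expressed genes, so that share is not one for proteasome genes. The SE of the members ran from 0.15 (Psmd12) to 0.47 (Psmc3ip), and the share of 2-fold changes found among them was not tested.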
